A study of Mus musculus with 33 samples.

Results

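Cartilage matrix consists of a collagen scaffold and a set of other proteins that fill, bridge and decorate it, and 9 genes of the second kind were followed here in cultures derived from mouse embryonic stem cells (mESCs): *Acan*, *Hapln1*, *Matn1*, *Matn2*, *Matn3*, *Matn4*, *Cytl1*, *Clec3a* and *Snorc*. The genes were picked out of the table by their symbols, with no threshold on a value, but the list was drawn up with earlier results of these data known, so that counts and medians over it are descriptions. Of the 9 genes, 7 were among the 17120 genes measured, and *Matn1* (ENSMUSG00000040533) and *Snorc* (ENSMUSG00000026258) were not analysed here. Low genes had been left out of the table before deposit, and each gene in it had at least 0.611 counts-per-million units (CPM) in 3 libraries.

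The study followed tendon and fibrocartilage induction over time in mESCs that carry the ScxGFP reporter. All groups passed through embryoid bodies and paraxial mesoderm (PM), made with the BMP inhibitor LDN-193189 and the Wnt agonist CHIR. The methods also describe a PM step with AGN 193109 or all-trans retinoic acid added, and whether the PM sequenced here had received either is not given in the sources used here. PM was collected as embryoid bodies at D6, which the labels call day 0. The other groups were plated as monolayers with TGFβ1, the smoothened agonist SAG and FGF2, and received in addition 1 of 2 retinoid ligands. CD1530 activates the retinoic acid receptor gamma, and AGN 193109 (AGN) lowers the activity of retinoic acid receptors below its unliganded level. Cells of either condition were taken at 5 times, here named by the culture day (D6.25 and D6.75, then D7.5 and D8.5, and last D10). Each of the 11 groups held 3 replicates, which the methods call biological. The labels give no sorting step, and fewer cells of a type and less RNA per cell cannot be told apart in any result below. Since each time point from D6.25 onward differed from PM in plating format as well as in factors, these cannot be told apart in a comparison with PM.

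Aggrecan, the product of *Acan*, is the large chondroitin sulfate proteoglycan that gives cartilage its resistance to compression. It binds along chains of hyaluronan, and the link protein encoded by *Hapln1* stabilises that bond. The matrilins (*Matn1* to *Matn4*) form oligomers that connect collagen fibrils with proteoglycans. *Matn1* and *Matn3* are mainly known from cartilage, whereas *Matn2* and *Matn4* are also expressed in other connective tissues. *Cytl1* encodes a small secreted protein known from chondrocytes, *Clec3a* a cartilage C-type lectin related to tetranectin, and *Snorc* a membrane proteoglycan of chondrocytes. In skeletal development, the transcription factor SOX9 drives many such genes, and retinoic acid receptor signalling is known to restrain cartilage formation.

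The sequences before the annotated starts of 3 measured genes are shown because these genes differed between the conditions to very unequal degrees at D10, from the moderate difference of *Matn3* to the near absence of *Cytl1* in one condition. They are the 250 bases upstream of the RefSeq start on GRCm38.p6, all on the + strand, and none overlaps an exon of the GENCODE M21 annotation. The *Acan* window is chr7:79052976-79053225, the *Matn3* window chr12:8947679-8947928 and the *Cytl1* window chr5:37735269-37735518. Capitals mark CG pairs.
Acan: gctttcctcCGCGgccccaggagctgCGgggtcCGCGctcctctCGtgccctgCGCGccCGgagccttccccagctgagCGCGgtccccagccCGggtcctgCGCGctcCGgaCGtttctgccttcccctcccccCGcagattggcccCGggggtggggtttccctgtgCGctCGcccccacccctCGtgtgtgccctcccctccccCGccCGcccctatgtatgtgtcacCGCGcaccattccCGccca
Matn3: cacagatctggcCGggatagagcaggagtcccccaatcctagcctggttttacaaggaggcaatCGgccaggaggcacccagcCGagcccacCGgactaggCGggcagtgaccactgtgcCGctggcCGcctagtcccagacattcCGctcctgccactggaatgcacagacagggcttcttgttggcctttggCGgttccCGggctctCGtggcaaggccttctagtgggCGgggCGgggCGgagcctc
Cytl1: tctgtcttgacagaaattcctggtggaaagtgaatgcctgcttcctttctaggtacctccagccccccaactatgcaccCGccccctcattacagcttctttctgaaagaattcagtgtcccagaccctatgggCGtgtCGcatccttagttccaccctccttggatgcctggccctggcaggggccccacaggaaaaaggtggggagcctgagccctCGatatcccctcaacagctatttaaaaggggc
The *Acan* window held 26 CG pairs and 74.4% G and C, and 91.4% of the 32851 promoters of the same length held as many CG pairs or fewer. *Matn3* held 14 CG pairs with 65.2% G and C, and *Cytl1* held 4 with 54.8%, against a median of 6 CG pairs and 52.4% over all promoters. RefSeq entries matched 6 of the 9 genes by symbol (*Acan*, *Matn1*, *Matn3*, *Matn4* with 2 starts, *Hapln1* and *Cytl1*), which gave 7 windows. Both strands of these were searched for ACAAAG and AACAAT (cores of SOX sites), AGGTCA (the core of retinoid receptor sites), TATAAA and GGGCGG (the GC box). GGGCGG occurred in the windows of *Acan*, *Matn1*, *Matn3*, *Cytl1* and 1 of the 2 of *Matn4*, and in 32.7% of all promoters. It occurred 3 times in *Acan*, where the matches at positions -44 to -39 and -40 to -35 from the start overlap, and 3 times in *Matn3* between positions -22 and -7, each overlapping the next by 1 base. None of the other 4 motifs occurred in any of the 7 windows, while ACAAAG occurred in 16.5%, AACAAT in 9.42%, AGGTCA in 14.0% and TATAAA in 12.4% of all promoters. A missing match says only that these letters are not in these windows.

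Libraries held 17116084 to 22775275 counts, and 1 stood apart with 38120841, replicate 1 of AGN at D8.5. Replicates correlated at 0.9927 to 0.9977 (Pearson r across genes of log2 CPM), and no pair was identical. The lowest r was that of CD1530 at D6.75 replicate 1 with its replicates, from which it also differed most in counts (chi-square per gene 20.1 and 21.3). Without it, both calls of members between the conditions at D6.75 stood, with a log2 fold change of 1.08 for *Hapln1* (edgeR adjusted p = 4.31e-18) and -0.98 for *Matn4* (adjusted p = 0.013). *Scx*, the tendon transcription factor behind the reporter, was at 6.41 ± 0.852 CPM (SD, n = 3) in PM, and at D10 its level was 858 ± 17.4 CPM with CD1530 and 1220 ± 27.8 CPM with AGN. Levels below are CPM scaled with TMM factors, and tests are edgeR's quasi-likelihood F test with Benjamini-Hochberg adjustment over all 17120 genes, with a gene called at an adjusted p under 0.05.

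At D10, 6 of the 7 measured genes were lower in CD1530 than in AGN, namely *Acan*, *Hapln1*, *Matn3*, *Matn4*, *Cytl1* and *Clec3a*, and *Matn2* was not called. Of all genes tested, 46.6% were called in this comparison, and 24.0% of all genes tested were called as lower in CD1530. The median log2 fold change (CD1530 over AGN) was -5.49 over the 7 genes and -0.02 over all genes. *Cytl1* and *Clec3a* passed the lowest level of the table only through AGN libraries, so their part in this count and median is a description. *Acan*, *Hapln1*, *Cytl1* and *Clec3a* differed by more than 40-fold, *Matn4* by 19.1-fold and *Matn3* by 1.74-fold. The libraries of the conditions did not overlap for any of these 6 called genes, and the share of all genes for which this holds was not counted.

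**Figure D1:**
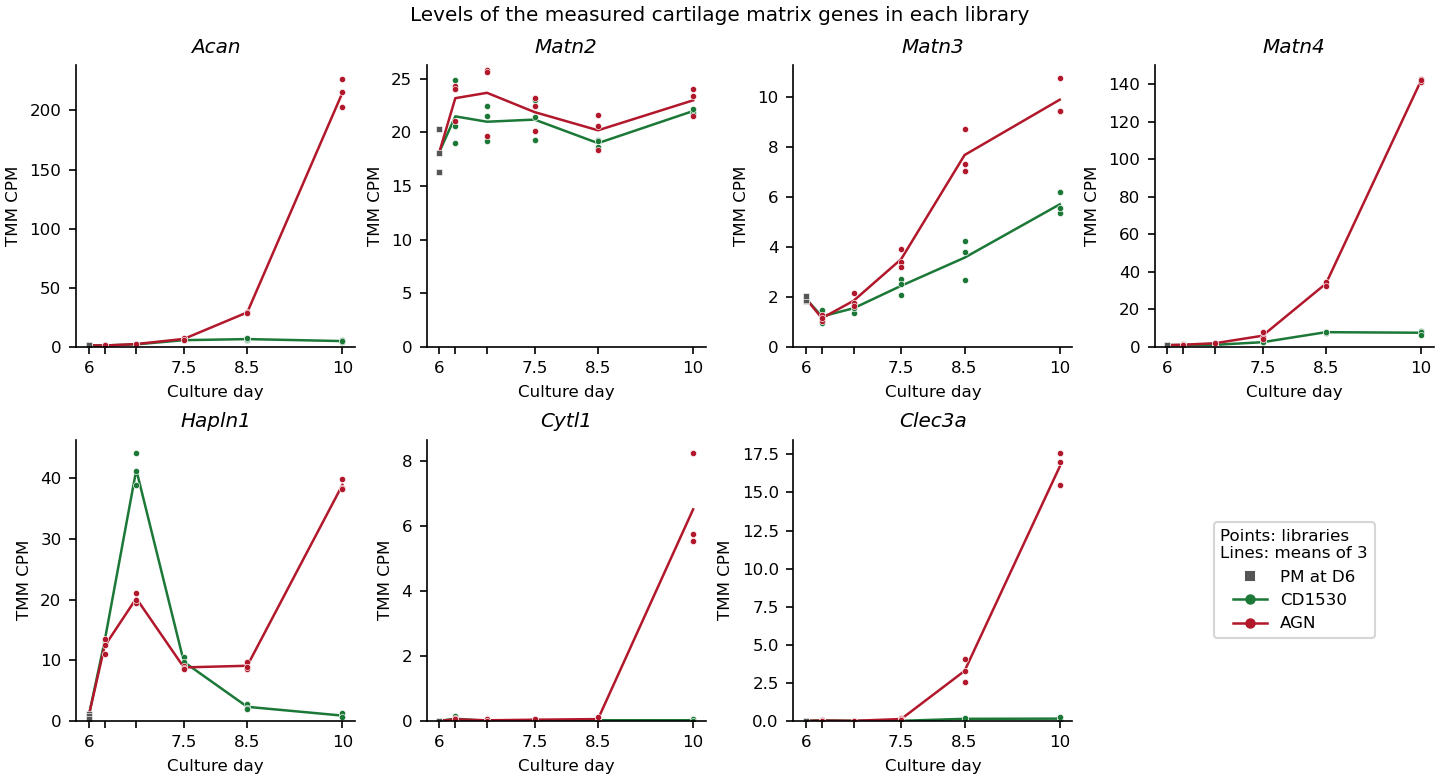
TMM-scaled CPM (y axis, linear, from 0) of the 7 measured genes against culture day (x axis). Points are libraries (squares, PM at D6), and lines join the means of 3. *Acan*, *Matn4*, *Cytl1* and *Clec3a* rose steeply in AGN between D8.5 and D10, *Hapln1* had an early maximum at D6.75 in both conditions, and *Matn2* lay between 16.3 and 25.8 CPM in every library.

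*Acan* (ENSMUSG00000030607; GRCm38 chromosome 7, 79053483 to 79115099, + strand) was near its starting level at first and then parted between the conditions. The 3 PM libraries had 1.05, 1.09 and 1.08 CPM. At D7.5 the CD1530 libraries had 5.93, 5.19 and 5.2 CPM and the AGN libraries 6.40, 7.21 and 5.88. These overlapped, and the log2 fold change of -0.26 (SE 0.12) did not pass the test (adjusted p = 0.101). At D8.5 CD1530 had 5.92, 6.01 and 7.07 CPM against 28.7, 29.4 and 28.8 in AGN (log2 fold change -2.19, SE 0.09, adjusted p = 2.1e-22). At D10 CD1530 had 3.99, 5.34 and 4.67 CPM against 203, 227 and 216 in AGN (log2 fold change -5.53, SE 0.09, adjusted p = 1.33e-37). Each AGN library at D10 thus held far more *Acan* than any CD1530 library of any time point. *Acan* did not stay at the PM level in CD1530 either, since it was 4.32-fold above PM at D10 (log2 fold change 2.11, SE 0.18, adjusted p = 1.29e-13) and 200-fold above PM in AGN (7.64, SE 0.11, adjusted p = 1.52e-40). Between D8.5 and D10 it moved in opposite directions, as it fell by 0.44 on the log2 scale in CD1530 (SE 0.13, adjusted p = 0.00347) and rose by 2.89 in AGN (SE 0.07, adjusted p = 3.53e-31). The CD1530 mean at D10 was 2.17% of the AGN mean.

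*Hapln1* (ENSMUSG00000021613; chromosome 13, 89539796 to 89611652, + strand), the link protein gene, did not follow *Acan*, whose product it holds on hyaluronan. It was already up at D6.25 in both conditions, from 1.2, 0.85 and 0.377 CPM in PM to 13.2, 12.9 and 13.3 in CD1530 and 13.5, 11.1 and 12.5 in AGN. Its highest group mean was that of CD1530 at D6.75, with 38.9, 41.2 and 44.2 CPM, against 21.1, 19.5 and 19.9 in AGN, though the AGN libraries of D10 overlapped it. CD1530 was then the higher condition (log2 fold change 1.04, SE 0.08, adjusted p = 2.93e-13). By D7.5 *Hapln1* had fallen in both, by 2.10 on the log2 scale in CD1530 (adjusted p = 4.23e-22) and by 1.2 in AGN (adjusted p = 4.11e-13), and the conditions overlapped (0.14, SE 0.11, adjusted p = 0.382). From there the direction turned. At D8.5 CD1530 had 2.85, 2.08 and 2.00 CPM against 8.5, 9.78 and 8.95 in AGN (log2 fold change -1.96, SE 0.14, adjusted p = 6.15e-15). At D10 CD1530 had 0.758, 1.21 and 0.618 CPM against 38.4, 39.9 and 38.3 in AGN (-5.49, SE 0.14, adjusted p = 4.14e-30). In CD1530 the level at D10 overlapped that of PM (0.06, SE 0.30, adjusted p = 0.848), and in AGN it rose a second time, by 2.11 between D8.5 and D10 (SE 0.09, adjusted p = 1.44e-22). *Hapln1* overlaps the pseudogene Gm8546 on the other strand but shares no exon base with it.

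**Figure D2:**
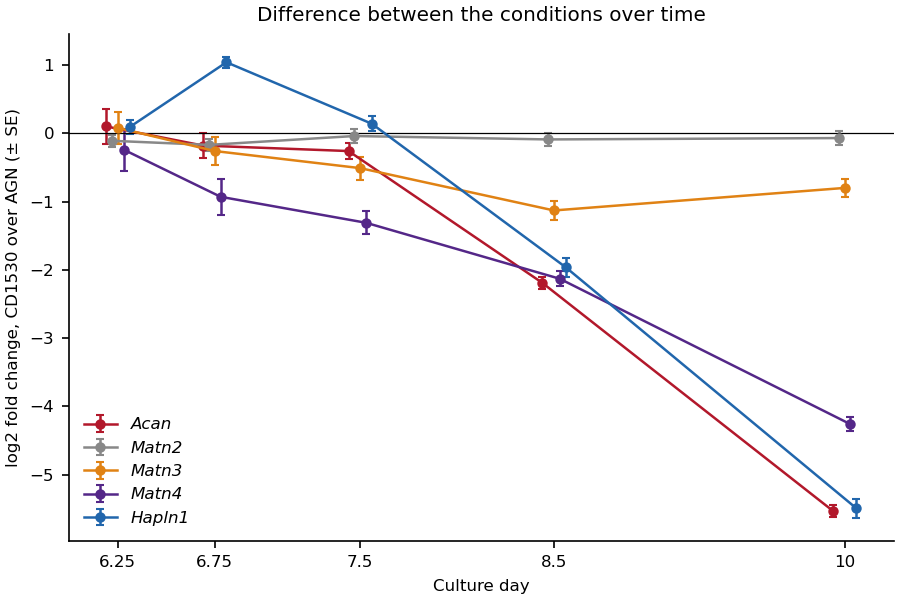
Log2 fold change of CD1530 over AGN with its SE (y axis) by culture day (x axis) for the 5 genes with counts in every group. *Hapln1* was higher in CD1530 at D6.75 and lower from D8.5, *Acan*, *Matn4* and *Hapln1* ended between -4.26 and -5.53, and *Matn2* was within 0.17 of 0 at each time point.

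The 3 measured matrilin genes differed from each other. *Matn4* (ENSMUSG00000016995; chromosome 2, 164389393 to 164405160, - strand) was the first member to be lower in CD1530. At D6.75 it had 0.991, 1.14 and 0.683 CPM in CD1530 and 1.94, 1.46 and 1.96 in AGN, which do not overlap (log2 fold change -0.93, SE 0.26, adjusted p = 0.00941). That call rested on low counts and was lost without CD1530 replicate 3 (adjusted p = 0.0596) and without AGN replicate 1 (adjusted p = 0.0539). The log2 fold change reached -1.31 at D7.5 (SE 0.17, adjusted p = 6.72e-08). It was -2.13 by D8.5 (SE 0.11, adjusted p = 7.36e-20). At D10 the CD1530 libraries had 8.23, 7.76 and 6.18 CPM and the AGN libraries 143, 141 and 142 (log2 fold change -4.26, SE 0.10, adjusted p = 3.1e-31). *Matn4* rose in CD1530 as well, to 9.31-fold over PM at D10 (adjusted p = 1.78e-17), and did so by D8.5, since the step from D8.5 to D10 was -0.05 (SE 0.13, adjusted p = 0.772). *Matn4* shares 149 exon bases with *Rbpjl* on the opposite strand, and the strand setting of the counting is not given in the sources used here. *Rbpjl* had 86 counts over the 3 AGN libraries at D10 and *Matn4* 7015, so that the 2 genes differ by a wide margin in reads, though *Rbpjl* was also highest in that group.

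*Matn3* (ENSMUSG00000020583; chromosome 12, 8947929 to 8972028, + strand) fell first and rose later in both conditions. PM had 1.82, 1.89 and 2.05 CPM, and at D6.25 CD1530 had 1.24, 1.47 and 0.937 and AGN 1.01, 1.27 and 1.15. It was the only measured member below PM by the test at any time point, by 0.66 on the log2 scale in CD1530 (SE 0.21, adjusted p = 0.00605) and by 0.74 in AGN (SE 0.22, adjusted p = 0.00267). The CD1530 call was lost without CD1530 replicate 3 of that time point (adjusted p = 0.0581). At D8.5 the libraries had 2.68, 3.78 and 4.24 CPM in CD1530 and 8.72, 7.03 and 7.31 in AGN (log2 fold change -1.13, SE 0.14, adjusted p = 1.42e-08). At D10 they had 5.35, 6.22 and 5.57 against 9.44, 10.8 and 9.45 (-0.80, SE 0.13, adjusted p = 2.77e-06). The gene was still rising in CD1530 at the last step, by 0.68 (SE 0.15, adjusted p = 0.000188). At D7.5 the difference of -0.51 (SE 0.17, adjusted p = 0.0197) was lost without CD1530 replicate 1 (adjusted p = 0.10) or AGN replicate 1 (adjusted p = 0.0975).

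*Matn2* (ENSMUSG00000022324; chromosome 15, 34306677 to 34436273, + strand) was measured at a similar level in all groups. Its group means ran from 18.2 ± 1.99 CPM in PM to 23.7 ± 3.47 in AGN at D6.75. The log2 fold change between the conditions was -0.07 (SE 0.10, adjusted p = 0.62) at D10, and it was not called at any of the 5 time points. At D6.75 it was called without AGN replicate 2 (-0.29, adjusted p = 0.0329). Against PM it was called higher at D10 in CD1530 (0.26, SE 0.10, adjusted p = 0.0143) and in AGN (0.33, SE 0.10, adjusted p = 0.00292). Both calls depended on the scaling and were lost with scaling by library size only (adjusted p = 0.143 and 0.0845), and the CD1530 call was also lost without PM replicate 2 or 3 (adjusted p = 0.0561 and 0.0936). *Matn2* shares 70 exon bases with 9430069I07Rik on the opposite strand, which is not among the genes measured.

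*Cytl1* (ENSMUSG00000062329; chromosome 5, 37735519 to 37739820, + strand) and *Clec3a* (ENSMUSG00000008874; chromosome 8, 114418086 to 114425846, + strand) were nearly without counts outside AGN. *Cytl1* had 92, 92 and 139 counts in the AGN libraries at D10 and at most 4 over the 3 libraries of any other group. In CD1530 at D10, 1 count was found in 3 libraries, which gives a ratio of 364 between the conditions (exact 95% counting interval 64.9 to 14400; edgeR adjusted p = 5.32e-15). Against PM, where no library had a count, AGN at D10 was at least 132-fold higher, taking 3 counts over the group as the floor. AGN at D8.5 had 4 counts in all, and the ratio of AGN at D10 to it was 123 (interval 47.7 to 455; adjusted p = 1.08e-15). *Cytl1* was thus detected above the floor in quantity at D10 of AGN alone among the 11 groups.

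*Clec3a* appeared one step earlier. The AGN libraries had 3, 3 and 1 counts at D7.5, then 94, 79 and 62 a day later (D8.5) and 272, 258 and 297 in the D10 libraries, while CD1530 had 0 counts at D7.5, 7 over the group at D8.5 and 8 at D10. At D8.5 the ratio of AGN to CD1530 was 23.9 (interval 11.4 to 60.1; adjusted p = 3.11e-12), and at D10 it was 117 (58.9 to 271; adjusted p = 1.03e-19). At D7.5 AGN was at least 2.45-fold higher, a call (adjusted p = 0.0158) that was lost without CD1530 replicate 3 (adjusted p = 0.0511). AGN at D10 was at least 338-fold above PM, where no library had a count. In CD1530 the gene was called above PM at D10 from those 8 counts (adjusted p = 0.00224), which is at least 2.9-fold. These intervals and floors cover counting error only, since reads that are PCR copies are not independent molecules.

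Against PM, all 7 genes were higher in AGN at D10, when 82.0% of all genes were called and 41.6% as higher. In CD1530 5 of 7 were higher (*Acan*, *Matn2*, *Matn3*, *Matn4* and *Clec3a*), when 83.2% of all genes were called and 43.3% as higher. Both comparisons share the PM libraries, whose marker levels are given below with those of other cell types. With genes without counts in PM set at their bounds, the median log2 fold change was 7.04 over 7 genes in AGN and 1.55 over the 6 genes with a fold in CD1530 (*Cytl1* was at or under the floor in both groups), against 0.00 and 0.04 over all genes. At the first time point, D6.25, the same 3 genes were called in each condition, with *Matn2* and *Hapln1* higher and *Matn3* lower. The *Matn2* call in CD1530 (log2 fold change 0.24, adjusted p = 0.0322) was lost without CD1530 replicate 2 of that time point (adjusted p = 0.33), without PM replicate 2 or 3 (adjusted p = 0.104 and 0.173) and with DESeq2 (adjusted p = 0.0529). Of all genes, 67.8% were called at that step in CD1530 and 68.1% in AGN. In between, the called members were all higher than PM. In CD1530 there were 2 at D6.75 (71.9% of all genes called), then 4 by D7.5 (74.1%) and 5 by D8.5 (77.4%). In AGN there were 4 at D6.75 (73.5%), then 6 by D7.5 (71.5%) and 5 by D8.5 (76.0%).

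The conditions parted step by step. At D6.25, 0 of 7 members were called between them by edgeR, 0 had an unadjusted p under 0.05 and 0 were called by DESeq2, when 1.92% of all genes were called. At D6.75 2 were called (*Hapln1* higher and *Matn4* lower in CD1530; 18.0% of all genes, 7.94% as higher and 10.0% as lower), and at D7.5 3 were (*Matn3*, *Matn4* and *Clec3a*, all lower; 26.9% of all genes, 11.8% as lower). At D8.5 5 were called, *Acan*, *Hapln1*, *Matn3*, *Matn4* and *Clec3a*, all lower (40.0% of all genes, 19.6% as lower). The deeply sequenced AGN replicate 1 did not decide these, since the same number, 5, was called without it. Whether the difference changed over time was tested directly, and the interaction over all 5 time points was called for 6 of 7 members, with *Matn2* as the exception (adjusted p = 0.921), when 48.8% of all genes were called. Between successive time points the difference changed for 1 member at the first step (4.82% of all genes), 1 at the second (9.0%), 3 at the third (11.5%) and 4 at the last (26.8%). *Hapln1* was among them at every step. The *Cytl1* interaction (adjusted p = 0.00205) was lost without CD1530 at D6.25 replicate 1 (adjusted p = 0.0959).

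Within a condition, members also moved from one time point to the next. In CD1530, 2 were called from D6.25 to D6.75 (*Acan* and *Hapln1*, both higher; 45.9% of all genes called), 4 in the next step (34.2%) and 4 from D7.5 to D8.5 (36.5%). In AGN, 4 were called from D6.25 to D6.75, all higher (43.7%), 5 in the next step (30.3%) and 4 from D7.5 to D8.5, all higher (42.1%). *Hapln1* was the only member to fall in the second step in either condition. Some of these calls rested on single libraries: *Matn3* in CD1530 from D7.5 to D8.5 was lost without replicate 1 of D7.5 (adjusted p = 0.0632) or replicate 3 of D8.5 (adjusted p = 0.104), and in AGN from D6.25 to D6.75 *Matn3* was lost without replicate 2 of D6.75 (adjusted p = 0.0611) and *Matn4* without replicate 2 of D6.25 (adjusted p = 0.0635). Within AGN, the step from D8.5 to D10 raised 6 of 7 members (all but *Matn2*), when 59.4% of all genes were called and 29.9% as higher. The same step in CD1530 raised *Matn3* and lowered *Acan* and *Hapln1* (57.3% of all genes called). For *Matn3* in AGN that step was small, 0.35 on the log2 scale (SE 0.12, adjusted p = 0.014), and it was lost with scaling by library size only (adjusted p = 0.0776), without AGN at D8.5 replicate 2 (adjusted p = 0.0645) and without AGN at D10 replicate 2 (adjusted p = 0.0884).

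To set the genes beside each other, CPM was divided by the annotated exon length of each gene in kilobases. In AGN at D10 *Acan* (28.8 ± 1.59 CPM per kilobase), *Clec3a* (28.3 ± 1.83) and *Matn4* (27.4 ± 0.165) stood highest, and the libraries of neighbours in that order overlapped. *Hapln1* (6.59 ± 0.151) and *Cytl1* (6.17 ± 1.43) followed and overlapped each other, as did *Matn2* (3.67 ± 0.216) and *Matn3* (3.29 ± 0.267). In CD1530 at D10 the order was different, led by *Matn2* (3.51 ± 0.0341), *Matn3* (1.90 ± 0.15), *Matn4* (1.43 ± 0.207) and *Acan* (0.625 ± 0.0902), with no overlap between these neighbours. In PM *Matn2* led as well (2.91 ± 0.318). Lengths of transcripts in use are not known, and with the longest annotated transcript in place of all exons the AGN levels at D10 were 34.5 for *Matn4*, 6.81 for *Hapln1* and 6.43 for *Matn2*.

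**Figure D3:**
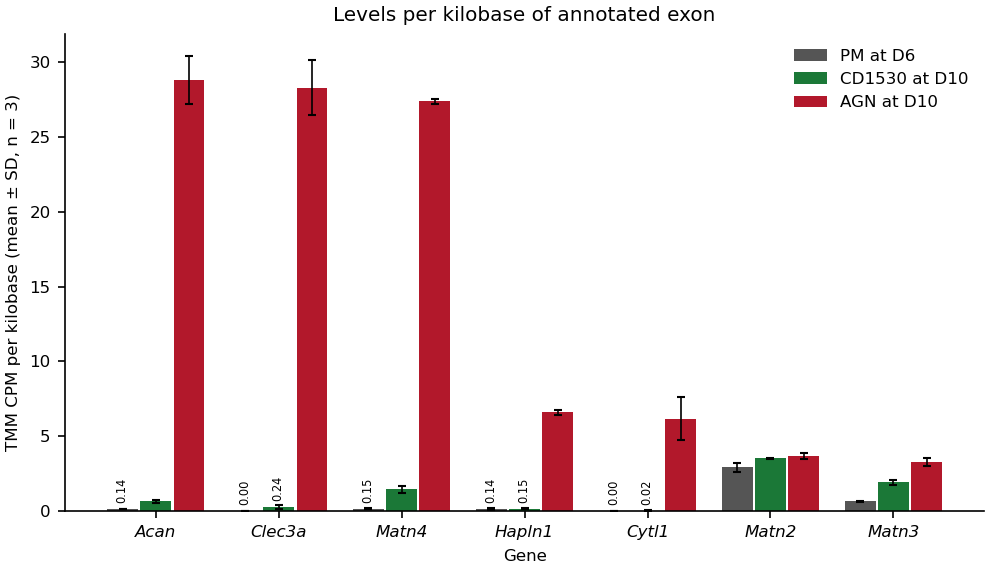
TMM CPM per kilobase of annotated exon (y axis, linear, from 0; bars are means, error bars SD, n = 3) of each gene in PM at D6, CD1530 at D10 and AGN at D10. Numbers above bars give means under 0.4. *Acan*, *Clec3a* and *Matn4* reached 27.4 to 28.8 in AGN, while *Matn2* was between 2.91 and 3.67 in all 3 groups.

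Likeness of time courses was described by Pearson's r of log2(CPM + 1) over the 11 group means, against the 12382 genes whose mean count was 50 or more. The points share the PM group and the culture series, so r is given as a description. *Acan* was most like *Rtl3* (0.982), *Matn4* (0.978), *Blvra* (0.974), *Chad*, which encodes the cartilage leucine-rich repeat protein chondroadherin (0.967), and *Setd3* (0.964). *Matn4* was most like *Rtl3* (0.990), *Dlx5*, a homeobox gene of skeletal development (0.983), *Adamts20* (0.978), *Acan* (0.978) and *Psmd7* (0.974). *Clec3a*, whose r rests mainly on AGN at D8.5 and D10, was most like *Aqp1* (0.977), *Gper1* (0.970), *Col11a2*, a cartilage collagen gene (0.962), *Egln3* (0.947) and *Itgbl1* (0.944). *Cytl1*, whose r rests on 1 group, was most like *Hspb6* (0.961), *Alx4* (0.959), *Unc5d* (0.956), *Egln3* (0.949) and *Tpra1* (0.948). These 4 members correlated with each other between 0.76 (*Matn4* and *Cytl1*) and 0.98 (*Acan* and *Matn4*), and *Matn3* with them at 0.90 (*Acan*), 0.95 (*Matn4*), 0.80 (*Clec3a*) and 0.60 (*Cytl1*).

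*Hapln1* had an r of 0.29 to *Acan* and 0.17 to *Matn4*. It was most like *Flrt3*, a cell surface adhesion gene (0.912), *Foxj1* (0.898), *Sel1l3* (0.892), *Slco3a1* (0.890) and *Camk1g* (0.889). *Matn3* was most like *Gnl1* (0.986), *Nkd2* (0.985), *Cbx6* (0.967) and *Klhl7* (0.964), and *Matn2* like *B4galt1* (0.929), *Adamts2* (0.921), *Cav2* (0.903), *Rabgap1l* (0.902) and *Lmcd1* (0.900).

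The proteins of *Acan* and *Hapln1* act together with hyaluronan, and the genes around this aggregate had their own courses. *Has2*, the main hyaluronan synthase of developing limbs, was highest at D6.25, with 120 ± 2.88 CPM in CD1530 and 97.9 ± 2.05 in AGN, before the *Hapln1* maximum, and ended at 28.8 ± 0.875 in CD1530 and 67.4 ± 4.92 in AGN (log2 fold change -1.23, SE 0.06, adjusted p = 2.07e-21). *Vcan*, which encodes versican, the large hyaluronan-binding proteoglycan of embryonic connective tissue, was 106 ± 10.9 CPM in PM and reached 812 ± 28.5 in CD1530 and 1640 ± 102 in AGN at D10 (-1.01, SE 0.14, adjusted p = 1.27e-06). *Col2a1*, the main cartilage collagen gene, peaked in CD1530 at D7.5 with 386 ± 7.27 CPM and was 145 ± 4.38 at D10, against 2500 ± 69.4 in AGN (-4.10, SE 0.05, adjusted p = 2.72e-42). *Acan* was at 13.5% of its highest group mean in AGN at D8.5, when *Col2a1* was at 37.5% and *Vcan* at 68.6% of theirs.

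**Figure D4:**
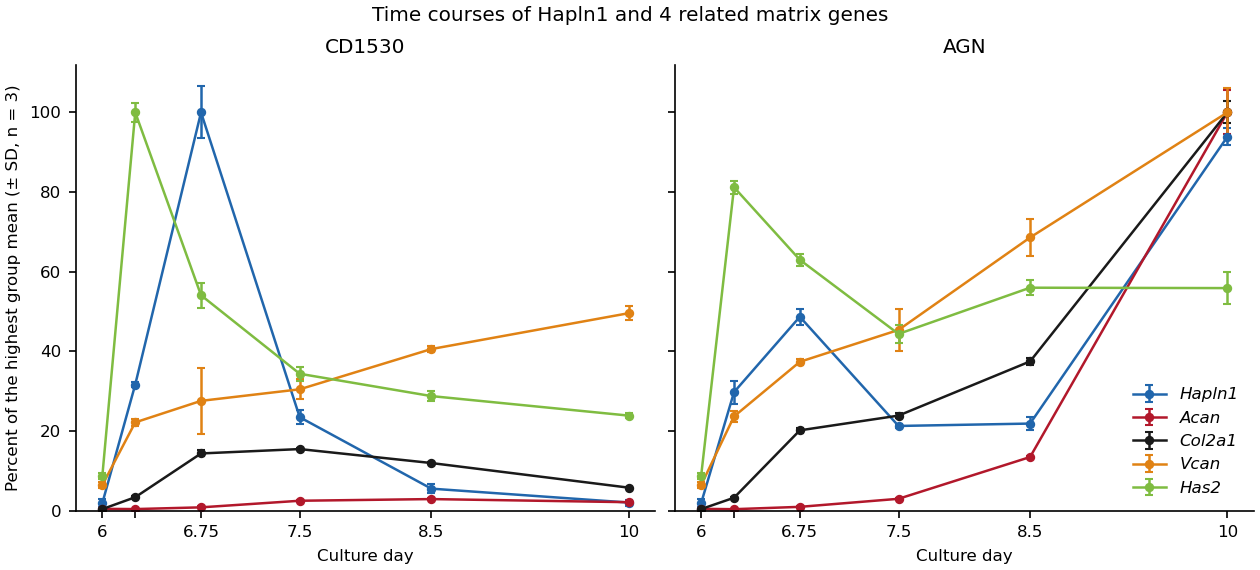
Level as a percent of the gene's highest group mean (y axis, mean ± SD, n = 3) against culture day (x axis) for *Hapln1*, *Acan*, *Col2a1*, *Vcan* and *Has2*, in CD1530 (left) and AGN (right), both starting from PM at D6. *Hapln1* reached 100% at D6.75 in CD1530 and 2.08% at D10, whereas in AGN it was at 48.7% at D6.75 and 93.9% at D10.

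Lists of related genes gave the setting of these changes at D10. Between the conditions at D10, 46.6% of all genes tested were called, and 24.0% of all genes tested as lower in CD1530. All 13 chondrogenic regulators measured were lower in CD1530 (median log2 fold change -1.23, against -0.02 over all genes). Of those with the highest levels, *Sox9* had a log2 fold change of -1.05 (SE 0.05, adjusted p = 2.97e-21), *Wwp2* of -1.23, *Foxc1* of -0.32 and *Arid5b* of -0.23 (adjusted p = 0.0305). The fold changes of *Acan* and *Hapln1* were larger in size than that of any of these 4 regulators. Of 8 cartilage collagen genes, 6 were lower, among them *Col9a3* (-4.50), *Col9a2* (-2.44) and *Col11a1* (-0.85), and 2 were higher in CD1530, named after their values were seen, *Col27a1* (0.73, adjusted p = 2.62e-14) and *Col10a1*, a marker of hypertrophic cartilage (1.23, adjusted p = 0.000106).

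Among 14 measured genes of other cartilage matrix and secreted proteins, 11 were lower in CD1530 (24.0% of all genes), 2 were higher and 1 was not called. *Fmod* (-2.27) and *Cilp* (-1.04) were lower, *Ogn* was higher (1.04, adjusted p = 2.96e-21), and *Mgp*, which encodes matrix Gla protein, had a log2 fold change of -0.02 (SE 0.05, adjusted p = 0.79). The other one higher in CD1530, named after its value was seen, was *Cilp2* (1.81, adjusted p = 2.08e-13). Of 4 measured relatives of the members (lecticans and link proteins), *Vcan* and *Hapln3* (-1.70, adjusted p = 1.73e-09) were lower, and *Ncan* (0.25, adjusted p = 0.397) and *Hapln4* (0.59, adjusted p = 0.0858) were not called.

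Genes that make or cut the sugar chains and the aggrecan core were called in both directions, in a comparison where 46.6% of all genes were called. Of 8 hyaluronan genes 2 were lower and 2 higher in CD1530, the latter being *Cemip2* (0.51, adjusted p = 1.03e-07) and *Hyal1* (0.64, adjusted p = 1.16e-06), which was named after its value was seen, and the receptor gene *Cd44* was not called (-0.16, adjusted p = 0.0519). Of 8 genes for aggrecan-cleaving proteases and their inhibitor, 3 were lower and 3 higher, among the latter *Adamts1* (0.98, adjusted p = 6.85e-18) and *Adamts9* (0.38, adjusted p = 0.00235). The 3 lower ones, named after their values were seen, were *Adamts5* (-0.66, adjusted p = 8.09e-09), *Adamts15* (-0.45, adjusted p = 1.61e-08) and *Mmp13* (-1.65, adjusted p = 4.83e-08). The inhibitor gene *Timp3* was not called (0.20, adjusted p = 0.0888). Of 19 genes of chondroitin sulfate synthesis and sulfation, 9 were lower, among them *Ugdh* (-0.62, adjusted p = 1.46e-15), and 6 were higher, among them *Chsy1* (0.21, adjusted p = 4.53e-05). Their median was -0.09. Against PM at D10, 17 of these 19 were higher in AGN (41.6% of all genes) and 18 in CD1530 (43.3%).

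Markers of other cell types also differed between the conditions at D10. Notochord, which expresses several cartilage matrix genes, was followed by 6 markers, all measured, whose summed level ran from 80.7 to 90.0 CPM in CD1530 and from 101 to 105 in AGN. Of these *T* had 0.503 ± 0.14 CPM in CD1530 and 27.1 ± 0.542 in AGN, *Noto* 0 and 2.33 ± 0.609, *Foxa2* 4.28 ± 0.389 and 14.1 ± 1.22 and *Shh* 1.78 ± 0.577 and 2.97 ± 0.171, whereas *Krt8* (55.2 ± 2.06 and 42.3 ± 1.77) and *Krt19* (25.1 ± 2.50 and 13.9 ± 0.211) were the other way round. At D8.5 the means in CD1530 and AGN were 2.05 and 9.31 CPM for *T* and 0.0186 and 0.0527 for *Noto*. They were 2.1 and 2.25 for *Foxa2*, 0.81 and 4.48 for *Shh*, 41.3 and 53.6 for *Krt8* and 24.4 and 20.3 for *Krt19*. From D8.5 to D10 the conditions moved apart for *T*, *Noto*, *Foxa2* and *Krt19*, came closer for *Shh* and changed order for *Krt8*. The notochord sum, which includes both keratins, was 578 to 594 CPM in CD1530 and 598 to 611 in AGN at D6.25, and 313 to 346 and 530 to 543 at D6.75. All 9 neural and glial markers were measured, and they summed to 148 to 161 CPM in CD1530 and 67.4 to 69.0 in AGN at D10, where *Neurog2* had no count, and the 4 pluripotency markers summed to 116 to 122 in CD1530 and 217 to 227 in AGN. The 6 measured tendon markers, which include *Fmod*, summed to 1620 to 1660 CPM in CD1530 and 4050 to 4300 in AGN, the 7 of hypertrophic cartilage and bone to 754 to 796 and 418 to 429, and the 5 of endoderm to 204 to 207 and 283 to 284. The sum for hypertrophic cartilage and bone was higher still in PM, at 878 to 937 CPM, although *Col10a1* had no count there. That sum therefore cannot be read as a measure of hypertrophic or bone cells. *Col10a1* itself made up little of it, with D10 means of 1.48 CPM for AGN and 3.47 for CD1530. The part of these other cell types in the differences of the matrix genes was not tested. In the group labelled PM, the 6 paraxial mesoderm markers summed to 53.8 to 53.9 CPM, the lowest of the 11 groups. Its 4 pluripotency markers summed to 1800 to 1830 CPM, the highest of the 11 groups, and its 5 endoderm markers to 674 to 697. Folds against PM are therefore relative to this group as labelled, and not to paraxial mesoderm cells alone.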

How the data were processed

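RNA sequencing of 33 cell cultures in 11 groups of 3 was used. The authors aligned reads to GRCm38 with STAR, assigned them to genes with featureCounts and deposited raw counts per gene, not normalized and with low genes left out. Which annotation release was used, whether strand was counted and how reads with several alignments were treated are not given in the sources used here. Of 17120 identifiers, 17117 matched GENCODE M21, which gave positions and exon lengths.

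Counts of all 33 libraries were fitted with edgeR 4.0.16 under R 4.3.3 (a mean per group, TMM, robust quasi-likelihood F test, no covariates, 28 contrasts). The edgeR filter on low counts removed no gene, and the biological coefficient of variation was 4.68%. Alternatives used DESeq2 1.42.0, other scalings and filters, a non-robust fit, a fit restricted to the groups compared, a block for replicate number, a minimum log2 fold change of 1 and leaving out each library. Python 3.11.15 was used for tables. The fit was also run on simulated data, with a larger biological coefficient of variation than found here. No result above rests on that run. Groups with at most 10 counts of *Cytl1* or *Clec3a* are given as ratios with exact intervals or as bounds. The median library held 19899242 counts.

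Genes named beside the members were the 5 most alike in time course and, of 7 lists (74 of 79 listed genes measured), at most 4 each by level, *Tmem2* being listed as *Cemip2*. Of the genes most alike, 1 is not reported here. Exceptions are stated. The members and lists were chosen with earlier results of these data known.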

Additional observations from a re-analysis of the deposited data

Results flagged for a closer look

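For 6 members the difference between CD1530 and AGN changed over time by the interaction test of edgeR, with adjustment over all genes. That test called 48.8% of all genes. *Hapln1* changed at every step: the log2 fold change (CD1530 over AGN) moved by 0.95 from D6.25 to D6.75, by -0.90 to D7.5, by -2.10 to D8.5 and by -3.53 to D10, so that it turned from higher to lower in CD1530. *Acan* moved by -1.93 from D7.5 to D8.5 and by -3.34 from D8.5 to D10, and *Matn4* by -0.82 and -2.13 over the same steps. *Clec3a* moved by -2.25 from D8.5 to D10 (adjusted p = 0.0379), from 7 and 8 counts in CD1530, and this call was lost without each of 7 of the 12 libraries in turn. For *Matn3* no single step was called with all libraries (the step from D7.5 to D8.5 was, without each of 3 libraries in turn), and the interaction over all 5 time points had an adjusted p of 0.00137. For *Cytl1* it had an adjusted p of 0.00205 and was lost without CD1530 at D6.25 replicate 1 (adjusted p = 0.0959), and no single step was called by edgeR (adjusted p = 0.0907 from D8.5 to D10).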

How the results depend on the processing

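Of 242 alternative counts of called members, leaving aside single left-out libraries, 233 were within 1.5 times the reported one. With only the compared groups, 1 member in place of 2 was called between the conditions at D6.75, since *Matn4* missed the threshold and 5 members were tested. With a minimum log2 fold change of 1, the count fell to 1 (*Hapln1*) between the conditions at D6.75, to 1 each against PM at D6.25 in both conditions and in CD1530 at D6.75, to 2 in AGN at D6.75, to 1 for the steps from D6.25 to D6.75 in both conditions and to 1 for CD1530 from D8.5 to D10. Leaving out single libraries moved the count at D6.75 between 1 and 3. It turned uncalled differences around 0 in direction (CD1530 over AGN, log2): *Acan* at D6.25 ranged from -0.03 to 0.24 and at D6.75 from -0.43 to 0.01, *Matn2* at D7.5 from -0.11 to 0.02, *Matn3* at D6.25 from -0.08 to 0.25 and *Cytl1* at D6.25, with under 5 counts a group, from -0.94 to 1.14. No call of *Acan* or *Hapln1* changed under any alternative run except the minimum fold change. Whether replicate numbers pair the samples was looked at through deviations from the group means. Same-numbered deviations correlated between -0.375 and 0.273, and all pairs passed 0.1 in 1 of 23 comparisons, CD1530 at D6.75 against D6.25. With 3 libraries a group, such deviations hold much counting noise, so this cannot exclude a pairing. With the replicate block, 6 members were called between the conditions at D10, the same number as reported, and no other count changed either. At D10, counts of 1 and 8 in CD1530 limit the folds of *Cytl1* and *Clec3a*.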
